A study of Mus musculus with 14 samples.

Results

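The genes described here encode proteins that carry dietary fat through the absorptive cell of the intestine, the enterocyte. They comprise the apolipoproteins Apoa1, Apoa4, Apoc3, Apob and Apoc2, the lipid transfer protein Mttp, the triglyceride-forming enzymes Dgat1 and Dgat2, and the fatty acid binding proteins Fabp1 and Fabp2. Members were taken as every array probe annotated to these 10 symbols, which gave 13 of the 45281 deposited probes, from 10 of the 19057 genes that have a probe. Apoa4 had 3 probes, Apoc2 had 2 and each other gene had 1. Where a gene had several probes, the probe with the highest mean level stands for it.

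The study used mouse intestinal organoids, with RNA read on Illumina BeadChip arrays. Organoids are epithelial cultures grown from intestinal crypts. It compared organoids without Apc and Prox1, from villin-CreER; Apcflox/flox; Prox1flox/flox cultures, with organoids without Apc alone, from villin-CreER; Apcflox/flox cultures. Apc is the brake on Wnt signalling and was deleted in both genotypes, and Prox1 is a transcription factor. All organoids were of strain C57Bl, with an age of 2 to 3 months given by the labels. Every group received tamoxifen for 2 days, which activates a Cre recombinase under the villin promoter, an intestinal epithelial promoter. The Wnt agonist R-Spondin1 was then withheld for 5 days to select Apc-mutant organoids, and RNA was taken at day 7 after tamoxifen. The labels do not name the gut segment, and they do not say whether replicates were separate animals or cultures. The p-values therefore measure only how far these arrays differ among themselves, and that spread may be technical.

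The labels list 14 entries in 2 series, but these held 12 different arrays. Replicate 4 of Apc-Prox1-deleted series 1 matched replicate 2 of Apc-deleted series 2 to within 0.0118 log2 at every probe, although the labels give them different genotypes. Replicate 3 of Apc-Prox1-deleted series 1 likewise matched replicate 2 of Apc-Prox1-deleted series 2 to within 0.0143, whereas the closest of the other pairs reached 1.1671. These 4 entries were left out. Series 1 then had 2 Apc-Prox1-deleted arrays (replicates 1 and 2) and 4 Apc-deleted arrays, and series 2 had 2 Apc-Prox1-deleted and 2 Apc-deleted arrays (replicates 1 and 3 of each). Prox1 was lower in Apc-Prox1-deleted organoids of both series, with a log2 difference of -1.75 in series 1 (limma adjusted p = 0.000948) and of -1.39 for the arrays of series 2 (0.0259). The labels do not say which part of the gene was removed. Sex-linked transcripts went with genotype in series 1. Xist, the X-inactivation RNA of female cells, averaged 6.68 in Apc-Prox1-deleted and 9.84 in Apc-deleted organoids of series 1, and 6.67 and 6.65 in those of series 2. The Y-linked Eif2s3y averaged 8.27 and 6.72 in these genotypes of series 1, and 6.72 and 7.03 in those of series 2. In series 1 the deletion of Prox1 and the difference in sex-linked transcripts cannot be told apart.

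Enterocytes take up fatty acids and monoglycerides, bind them inside the cell, and rebuild them into triglycerides at the endoplasmic reticulum. The triglyceride is loaded onto apolipoprotein B by the microsomal transfer protein, and the particle leaves the cell as a chylomicron that also carries the smaller apolipoproteins A-I, A-IV and C-III. Apoa1, Apoc3 and Apoa4 lie next to each other in the genome, and in the intestine they are expressed in differentiated enterocytes under control of nuclear receptors such as HNF4.

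Levels are given on a log2 scale on which the median probe of an array lies at 6.78 to 6.79, so that values near this level are close to the background of the array. Differences are Apc-Prox1-deleted minus Apc-deleted. A probe was called when its limma p-value, adjusted by the Benjamini-Hochberg method over all 26342 probes kept, was under 0.05. Of the 13 member probes, 11 passed the filter on dim probes, from 8 genes, and the probes of Fabp1 and Fabp2 did not.

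In series 1, Apoa1, Apoa4 and Apoc3 were each 3.14-fold to 3.40-fold lower in Apc-Prox1-deleted organoids, and no member was called higher by limma. The calls covered 5 of 11 member probes, or 45.5%, all of them lower, where 8.32% of all probes tested were called, 4% higher and 4.32% lower. The called probes include every probe of Apoa4. Members were chosen with earlier results of these data known, so the comparison of these shares is a description and not a test. By gene, 3 of 8 fell and 5 did not pass, and at an unadjusted p under 0.05 these were 3 lower and 1 higher. The median difference of the 8 genes was -0.25, against a median of 0.005 over all probes. In series 2, Apob rose and the other 7 genes did not pass, with 4.12% of all probes called, 1.71% higher and 2.41% lower. The median of the 8 genes was 0.12 in series 2, against 0.002 over all probes. Groups did not overlap for 5 lower and 1 higher member probes in series 1, where 14% and 15.7% of all probes had such groups. In series 2 they did not overlap for 1 lower and 3 higher member probes, where the shares over all probes were 20.3% and 20.7%. These are whole-organoid samples, in which fewer cells of a type and less RNA per cell cannot be told apart.

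**Figure D1:**
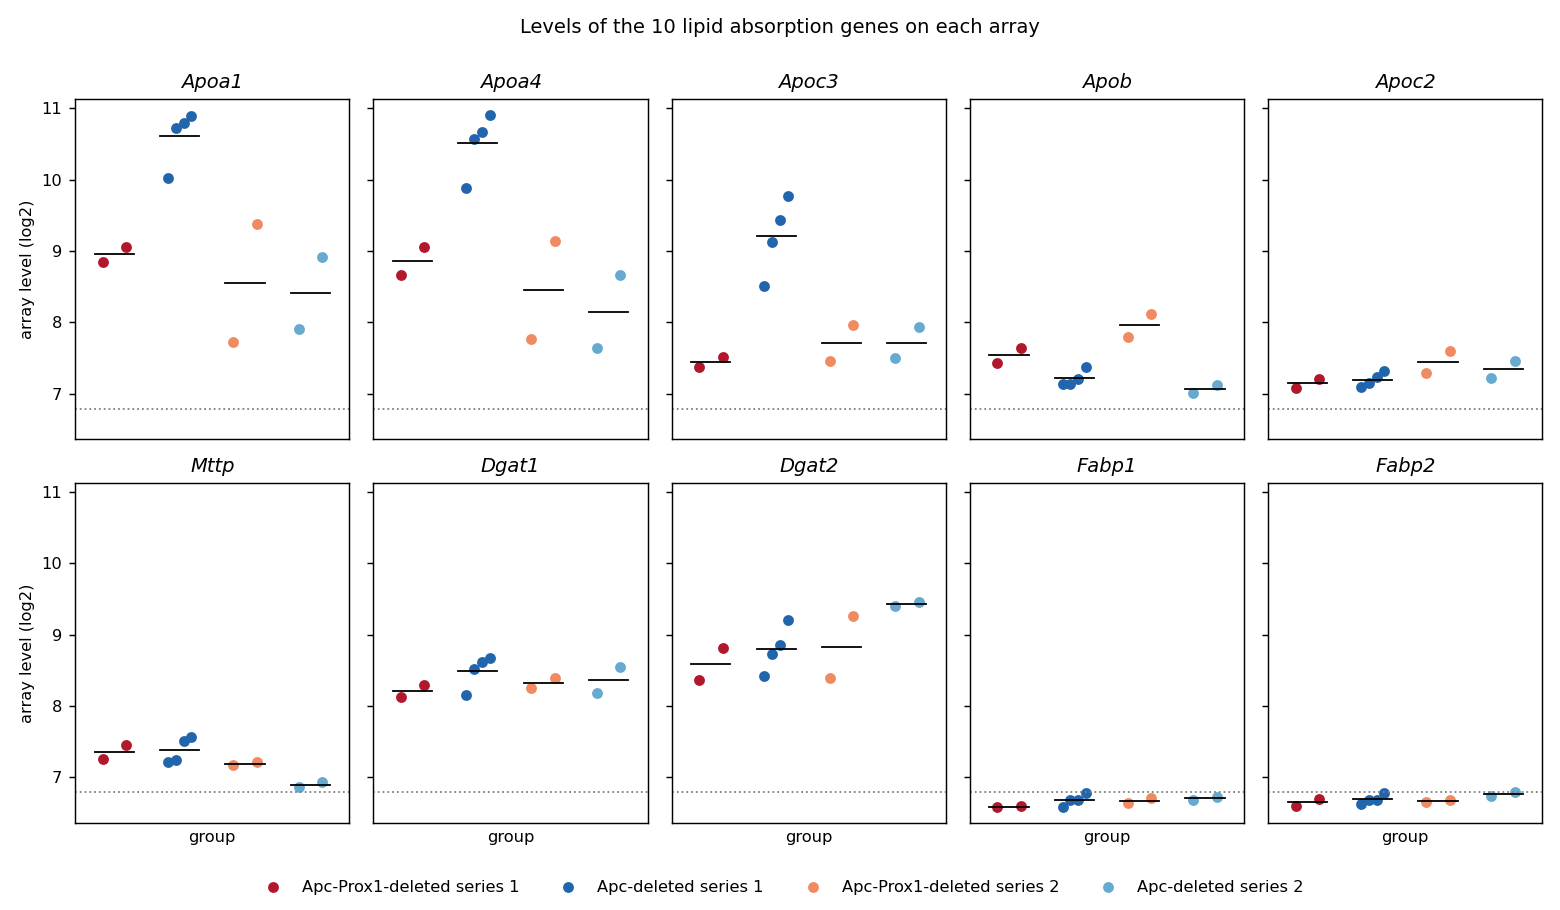
Level of each of the 10 genes on each of the 10 arrays, in log2 units, with 1 point per array, a bar at the group mean and a dotted line at the median probe of an array. Apoa1, Apoa4 and Apoc3 are lower on both Apc-Prox1-deleted arrays than on all 4 Apc-deleted arrays of series 1, Apob is higher on both Apc-Prox1-deleted arrays of series 2, and Fabp1 and Fabp2 stay at the dotted line.

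Apoa1, the main protein of high density lipoprotein, was at 9.06 and 8.85 on the Apc-Prox1-deleted arrays of series 1, against 10.89, 10.02, 10.72 and 10.79 on the Apc-deleted arrays. Both Apc-Prox1-deleted arrays were below every Apc-deleted array. The means were 8.96 ± 0.15 (SD, n = 2) and 10.61 ± 0.40 (SD, n = 4), a 3.14-fold fall (difference -1.65, SE 0.35, 95% interval -2.39 to -0.91, limma adjusted p = 0.00599). Leaving out replicate 1 of the Apc-Prox1-deleted arrays of series 1 ended the call (-1.76, limma adjusted p = 0.0521), as did leaving out their replicate 2 (-1.54, adjusted p = 0.103). So did a robust variance prior (adjusted p = 0.104), a fit without a variance trend (0.0665) and a fit to the deposited ratios (0.0508). In series 2, Apoa1 was at 7.72 and 9.38 on the Apc-Prox1-deleted arrays, against 7.91 and 8.92 on the Apc-deleted arrays. These groups overlapped completely, and the difference was 0.13 (SE 0.41, 95% interval -0.73 to 0.99, limma adjusted p = 0.922).

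Apoa4, an apolipoprotein of chylomicrons that the intestine secretes after fat intake, behaved much like Apoa1 on its brightest probe. Its levels in series 1 were 9.05 and 8.66 on the Apc-Prox1-deleted arrays, against 10.91, 9.88, 10.57 and 10.67 on the Apc-deleted arrays. The groups did not overlap. The means were 8.86 ± 0.28 (SD, n = 2) and 10.51 ± 0.44 (SD, n = 4), a 3.15-fold fall (difference -1.65, SE 0.34, 95% interval -2.36 to -0.95, limma adjusted p = 0.00414). The other 2 Apoa4 probes were also called, 2.54-fold lower (adjusted p = 0.00188) and 1.71-fold lower (adjusted p = 0.0161), the smaller fold on the dimmest probe, whose Apc-Prox1-deleted levels were 7.36 and 7.13. The call of the brightest probe ended when replicate 2 of Apc-Prox1-deleted series 1 was left out (-1.46, limma adjusted p = 0.103), with a robust variance prior (0.0808) and in a fit without a variance trend (0.0545). In series 2 the levels were 7.76 and 9.14 on the Apc-Prox1-deleted arrays, against 7.64 and 8.66 on the Apc-deleted arrays, and the groups overlapped. The difference was 0.30 (SE 0.39, 95% interval -0.52 to 1.12, limma adjusted p = 0.778).

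Apoc3, which slows the clearance of triglyceride-rich particles in part by inhibiting lipoprotein lipase, had the lowest adjusted p among the member probes in series 1. It was at 7.51 and 7.38 on the Apc-Prox1-deleted arrays, against 9.77, 8.51, 9.44 and 9.12 on the Apc-deleted arrays. Even the lowest Apc-deleted array stood above both Apc-Prox1-deleted arrays. The means were 7.44 ± 0.09 (SD, n = 2) and 9.21 ± 0.54 (SD, n = 4), a 3.40-fold fall (difference -1.77, SE 0.25, 95% interval -2.29 to -1.24, limma adjusted p = 0.000202), and this call held in each of 20 alternatives run. In series 2, Apoc3 was at 7.46 and 7.96 on the Apc-Prox1-deleted arrays, against 7.50 and 7.93 on the Apc-deleted arrays. The groups overlapped, and the difference was 0.00 (SE 0.29, 95% interval -0.61 to 0.60, limma adjusted p = 1).

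The 3 genes differed in level between the series as well. The Apc-deleted arrays of series 2 lay below all 4 Apc-deleted arrays of series 1 for Apoa1, Apoa4 and Apoc3. For Apoa1 the means were 8.41 ± 0.71 (SD, n = 2) on the Apc-deleted arrays of series 2 and 8.96 ± 0.15 (SD, n = 2) on the Apc-Prox1-deleted arrays of series 1. Series and everything that differed between them cannot be told apart, so no test is given of this comparison. Within series 2 the replicates differed more than the genotypes for these 3 genes, and the labels do not say what a replicate number marks. Replicate 3 was above replicate 1 for Apoa1 by 1.66 in Apc-Prox1-deleted and 1.01 in Apc-deleted organoids, for Apoa4 by 1.38 and 1.02, and for Apoc3 by 0.50 and 0.43.

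The difference between genotypes was itself tested between the series. For Apoc3 the series 1 difference minus that of series 2 was -1.76 (SE 0.38, 95% interval -2.56 to -0.97, limma adjusted p = 0.0423), the only member probe of 11 to be called, where 0.562% of all probes were, 0.296% higher and 0.266% lower. That call was lost in 11 of 19 alternatives, among them a robust variance prior (adjusted p = 0.228), no variance trend (0.342) and the deposited ratios (0.21). It was also lost when any of 8 arrays was left out. In series 1 these were replicates 1 (limma adjusted p = 0.145) and 2 (0.212) of the Apc-Prox1-deleted group and replicates 1 (0.0506), 3 (0.0515) and 4 (0.0661) of the Apc-deleted group. In series 2 they were replicate 3 of the Apc-Prox1-deleted group (limma adjusted p = 0.226) and replicates 1 (0.247) and 3 (0.0548) of the Apc-deleted group. Apoa1 gave -1.78 (SE 0.54, limma adjusted p = 0.253) and Apoa4 gave -1.96 (SE 0.51, adjusted p = 0.138), and neither passed. With replicate 1 of Apc-Prox1-deleted series 2 left out both passed, Apoa1 at -2.62 (limma adjusted p = 0.0132) and Apoa4 at -2.65 (adjusted p = 0.0172).

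Over both series, with a term for series, 2 of 11 member probes were called, where 12.7% of all probes were, 5.94% higher and 6.79% lower. Apoc3 was lower (-1.01, SE 0.28, limma adjusted p = 0.0267) and Apob was higher (0.57, SE 0.11, adjusted p = 0.00211). The Apoc3 call was lost in 9 of 21 alternatives. With settings changed, these were all 14 entries as labelled (-0.82, limma adjusted p = 0.0806), a robust variance prior (0.17), no variance trend (0.107), the deposited ratios (0.0669), a replicate block (-0.85, 0.084) and no series term (-1.13, 0.14). The call also ended when replicate 1 (-0.81, limma adjusted p = 0.139) or 2 (-0.76, 0.162) of Apc-Prox1-deleted series 1 was left out, or replicate 4 of the Apc-deleted arrays of that series (-0.98, 0.0507). Apoa1 (-0.89, SE 0.34, limma adjusted p = 0.109) and Apoa4 (-0.82, SE 0.35, adjusted p = 0.149) did not pass. Both did pass with replicate 1 of Apc-deleted series 2 left out (-1.23, limma adjusted p = 0.0165, and -1.17, adjusted p = 0.0201) and with replicate 3 of Apc-Prox1-deleted series 2 left out (-1.33, adjusted p = 0.00146, and -1.23, adjusted p = 0.00583).

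**Figure D2:**
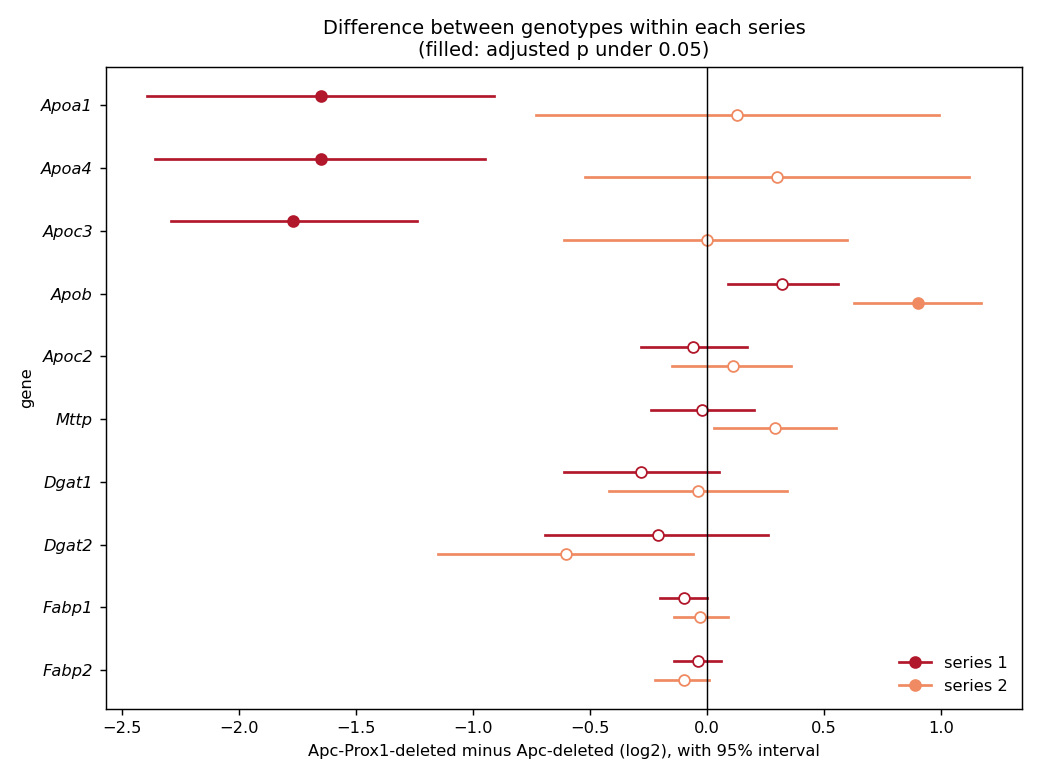
Difference between genotypes for each of the 10 genes within each series, as Apc-Prox1-deleted minus Apc-deleted in log2 units, with 95% intervals from the limma fit and filled points where the adjusted p was under 0.05. Apoa1, Apoa4 and Apoc3 sit at -1.65, -1.65 and -1.77 in series 1 and near 0 in series 2, and Apob is filled in series 2 at 0.90. Fabp1 and Fabp2 come from a fit without the filter on dim probes.

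Apoa1, Apoa4 and Apoc3 followed each other closely from array to array. After each series was centred on its mean, Pearson's r over the 10 arrays was 0.99 for Apoa1 with Apoa4, 0.91 for Apoa1 with Apoc3 and 0.93 for Apoa4 with Apoc3. These values are a description, since the arrays share their genotype groups. Apob gave -0.15, -0.11 and -0.34 with the same 3 genes, and Dgat1 gave 0.82, 0.84 and 0.79.

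**Figure D3:**
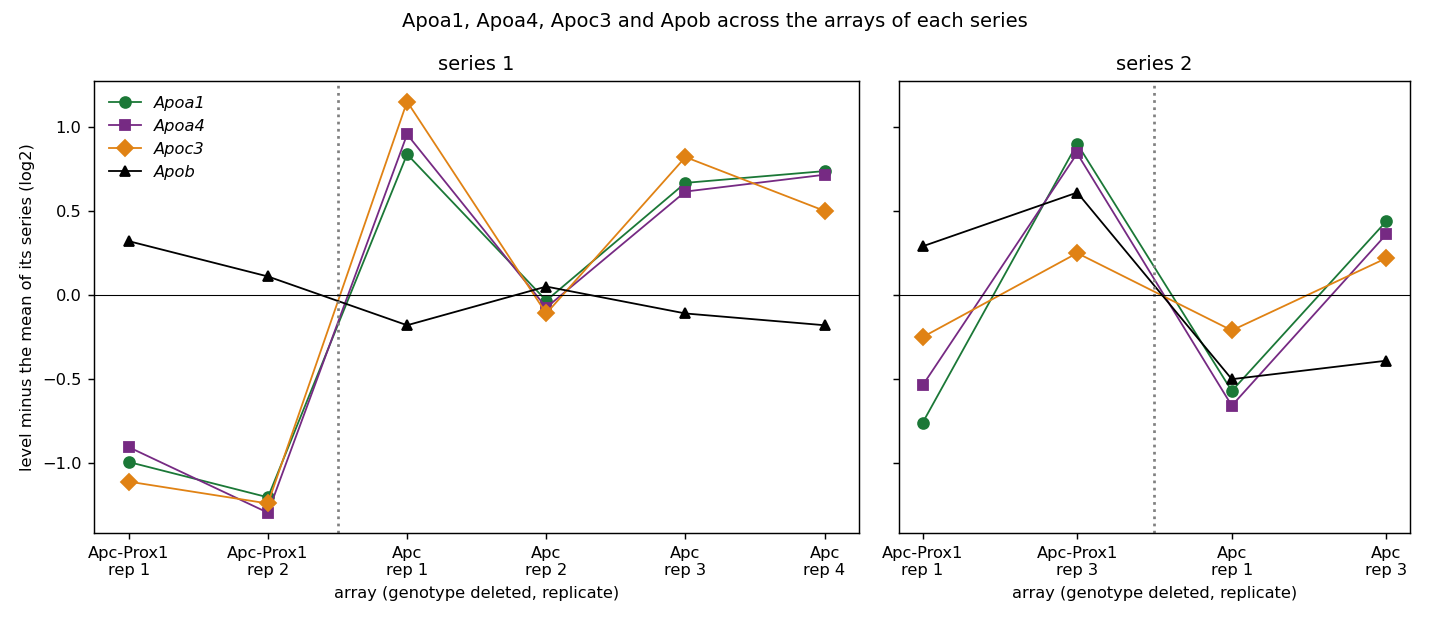
Level of Apoa1, Apoa4, Apoc3 and Apob on each array minus the mean of its series, in log2 units, with the Apc-Prox1-deleted arrays left of the dotted line; lines only link the points of a gene. The first 3 genes lie on the same side of the series mean on all 10 arrays, and Apob does not follow them.

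The 3 genes are neighbours. In RefSeq on mouse build GRCm38.p6, Apoa1 spans chr9:46228630-46230469, Apoc3 chr9:46233050-46235636 and Apoa4 chr9:46240844-46243458. A gap of 2581 bp lies between Apoa1 and Apoc3, and 1 of 5208 bp between Apoc3 and Apoa4, whichever strand each gene is read from. The genes around them were not called in series 1. Sik3, a kinase gene that ends 4436 bp before Apoa1, differed by 0.16 (SE 0.07, limma adjusted p = 0.17), at levels of 6.98 ± 0.10 (SD, n = 2) in Apc-Prox1-deleted and 6.82 ± 0.07 (SD, n = 4) in Apc-deleted organoids, close to background. Over both series Sik3 was called higher (0.17, SE 0.05, limma adjusted p = 0.0333). Apoa5, the apolipoprotein gene 25150 bp beyond Apoa4, differed by -0.04 (SE 0.05, adjusted p = 0.776) at background level, Zpr1 by 0.23 (SE 0.16, 0.498) and Bud13 by 0.12 (SE 0.14, 0.725).

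The promoters of Apoa1 and Apoa4 are printed because these genes moved together, and that of Apob because it did not follow them. The sequences are the bases upstream of the gene start in RefSeq's promoter table, build GRCm38.p6, written 5′ to 3′, and capitals mark a TATAAA.
Apoa1 at chr9:46228380-46228629 (+ strand): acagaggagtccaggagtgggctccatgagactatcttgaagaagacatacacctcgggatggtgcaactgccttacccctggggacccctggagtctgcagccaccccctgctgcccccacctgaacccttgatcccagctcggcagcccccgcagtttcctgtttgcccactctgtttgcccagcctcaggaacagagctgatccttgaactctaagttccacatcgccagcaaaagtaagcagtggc
Apoa4 at chr9:46240594-46240843 (+ strand): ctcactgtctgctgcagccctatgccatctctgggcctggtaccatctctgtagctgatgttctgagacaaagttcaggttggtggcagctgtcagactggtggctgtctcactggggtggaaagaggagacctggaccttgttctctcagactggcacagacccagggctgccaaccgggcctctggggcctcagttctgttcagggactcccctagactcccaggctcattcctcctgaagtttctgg
Apob at chr12:7977427-7977628 (+ strand): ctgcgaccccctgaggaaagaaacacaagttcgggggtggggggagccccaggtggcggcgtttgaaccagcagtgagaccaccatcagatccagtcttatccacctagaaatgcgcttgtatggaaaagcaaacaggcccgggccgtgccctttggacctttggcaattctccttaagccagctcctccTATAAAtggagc
In the Apob window the last 48 bases of 250, which lie inside the annotated gene, are not shown. Promoters were in the table for 7 of the 10 genes: Apoa1, Apoa4, Apob, Apoc2, Fabp1, Fabp2 and Mttp. The 250 bases that the table places before each start, for Apob with those 48 bases, were searched on both strands for the nuclear receptor site AGGTCA, for its direct repeat with 1 base between the copies, for the HNF4 motif CAAAGTCCA, for the CDX motifs TTTATTG and TTTATGG, for the GATA motifs AGATAA and TGATAA and for TATAAA. The direct repeat contains AGGTCA. Neither the direct repeat nor CAAAGTCCA was in any of the 7 windows, and they were in 0.0335% and 0.384% of all 32851 promoters. AGGTCA was in 2 of the 7 windows, those of Apoc2 and Fabp1, and in 14% of all promoters. TATAAA was also in 2, those of Apob, where it begins at position -12 from the start of the annotated gene, and Fabp1, and in 12.4% of all promoters. Of the CDX motifs, TTTATTG was in the windows of Apoc2 and Fabp2 and in 4.2% of all promoters, and TTTATGG in that of Fabp1 and in 2.43%. Of the GATA motifs, TGATAA was in the window of Apoc2 and in 7.94% of all promoters, and AGATAA was in 0 of the 7 and in 9.99%. The Apoa1 and Apoa4 windows held none of the letters searched. Only exact matches were counted, so the search does not show that sites with other letters are missing.

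Apob, the structural protein of chylomicrons, was the gene that rose in series 2. Its levels were 7.80 and 8.12 on the Apc-Prox1-deleted arrays, against 7.01 and 7.12 on the Apc-deleted arrays. Both Apc-Prox1-deleted arrays lay well above both Apc-deleted arrays. The means were 7.96 ± 0.23 and 7.06 ± 0.08 (SD, n = 2 each), a 1.86-fold rise (difference 0.90, SE 0.13, 95% interval 0.63 to 1.17, limma adjusted p = 0.000443), and the call held in each of 20 alternatives. In series 1, Apob was at 7.64 and 7.43 on the Apc-Prox1-deleted arrays, against 7.14, 7.37, 7.21 and 7.14 on the Apc-deleted arrays. The groups did not overlap there either, but the gap between replicate 2 of each genotype was small, and the difference of 0.32 (SE 0.11, limma adjusted p = 0.0855) did not pass. It passed with replicate 2 of Apc-deleted series 1 left out (0.38, limma adjusted p = 0.0439), with replicate 3 of Apc-Prox1-deleted series 2 left out (0.32, adjusted p = 0.0473) and in 5 other alternatives, with adjusted p from 0.00853 to 0.0483. The change in Apob between series was not called (-0.58, SE 0.17, limma adjusted p = 0.227). On the Apc-deleted arrays Apob was close to background, with means of 7.22 in series 1 and 7.06 in series 2, which limits these differences. Apob spans chr12:7977629-8016839 on the same build.

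Apobec1, the deaminase that edits the Apob transcript in the mouse intestine, was called in the same direction in series 2. It averaged 8.58 ± 0.09 in Apc-Prox1-deleted and 7.76 ± 0.20 in Apc-deleted organoids of series 2 (SD, n = 2 each), a 1.77-fold rise (limma adjusted p = 0.00135). In series 1 the means were 7.72 ± 0.05 (SD, n = 2) and 7.36 ± 0.10 (SD, n = 4), and the difference of 0.37 (SE 0.11, adjusted p = 0.0561) did not pass. Over both series Apobec1 was called higher (0.56, SE 0.10, limma adjusted p = 0.00131).

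Mttp, the microsomal transfer protein that loads lipid onto apolipoprotein B, did not pass in either series. Its levels in series 1 were 7.46 and 7.26 on the Apc-Prox1-deleted arrays, against 7.21, 7.25, 7.51 and 7.56 on the Apc-deleted arrays, with overlapping groups. In series 2 they were 7.21 and 7.18 on the Apc-Prox1-deleted arrays, against 6.94 and 6.86 on the Apc-deleted arrays. The series 2 groups did not overlap, but Mttp lay near background there and the difference of 0.29 (SE 0.12, 95% interval 0.03 to 0.55, limma adjusted p = 0.229) did not pass. The interval in series 1 ran from -0.24 to 0.20 around a difference of -0.02.

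Apoc2, the cofactor that activates lipoprotein lipase, was dim on both probes and was not called. On its brighter probe it was at 7.21 and 7.08 on the Apc-Prox1-deleted arrays of series 1, against 7.32, 7.09, 7.23 and 7.15 on the Apc-deleted arrays. In series 2 it was at 7.29 and 7.60 on the Apc-Prox1-deleted arrays, against 7.22 and 7.46 on the Apc-deleted arrays. Groups overlapped in both series, with 95% intervals of -0.28 to 0.17 in series 1 and -0.15 to 0.36 in series 2. The second probe ranged from 6.80 to 6.98 over all 10 arrays.

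Dgat1 and Dgat2, the enzymes that add the last acyl chain of triglyceride, were well above background and did not pass. Dgat1 was at 8.29 and 8.13 on the Apc-Prox1-deleted arrays of series 1, against 8.62, 8.15, 8.52 and 8.68 on the Apc-deleted arrays, and the difference was -0.28 (SE 0.16, 95% interval -0.61 to 0.05, limma adjusted p = 0.35). In series 2 it was at 8.26 and 8.40 on the Apc-Prox1-deleted arrays, against 8.19 and 8.55 on the Apc-deleted arrays. Its groups overlapped in both series. Dgat2 was at 8.81 and 8.37 on the Apc-Prox1-deleted arrays of series 1, against 8.73, 8.42, 9.21 and 8.85 on the Apc-deleted arrays, a difference of -0.21 (SE 0.23, limma adjusted p = 0.701). In series 2 it was at 8.40 and 9.26 on the Apc-Prox1-deleted arrays, against 9.40 and 9.46 on the Apc-deleted arrays. The series 2 groups did not overlap, but the Apc-Prox1-deleted arrays differed from each other by 0.86, and the difference of -0.60 (SE 0.26, 95% interval -1.15 to -0.06) did not pass (limma adjusted p = 0.245). With replicate 3 of Apc-Prox1-deleted series 2 left out it was -1.03 and passed (limma adjusted p = 0.044).

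Fabp1 and Fabp2, the cytosolic carriers of fatty acids in enterocytes of the small intestine, were at background on these arrays. Fabp1 ranged from 6.58 to 6.78 and exceeded the array median on 0 of the 10 arrays, and Fabp2 ranged from 6.60 to 6.80 and exceeded it on 1. Without the filter, Fabp1 differed by -0.10 in series 1 and -0.03 in series 2, and Fabp2 by -0.04 and -0.10, with limma adjusted p from 0.375 to 0.928. At this signal a difference in either gene could not be detected. Each gene has 1 probe, so these values do not show that the transcripts were missing.

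In the wider pathway the share of genes called was near that over all probes. Over 7 lists, 9 of 94 genes were called in series 1, or 9.57%, where 8.32% of all probes were, and 5 of 94 in series 2, or 5.32%, where 4.12% were. Of 15 genes of lipid uptake and fatty acid activation that passed the filter, 1 rose and 1 fell in series 1. The gene that fell was Slc27a2, which activates very long chain fatty acids, at 7.99 ± 0.07 (SD, n = 2) in Apc-Prox1-deleted and 9.07 ± 0.21 (SD, n = 4) in Apc-deleted organoids, 2.12-fold lower (limma adjusted p = 0.000247). It also fell in series 2, by 1.77-fold (adjusted p = 0.0135), the only gene of the list called there. The gene that rose in series 1 was Scarb2, a lysosomal membrane protein (1.33-fold, adjusted p = 0.0238). The list medians were 0.03 in series 1 and 0.11 in series 2.

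None of 18 genes of triglyceride synthesis and lipid droplets passed in limma in either series, with medians of -0.04 and 0.06. At an unadjusted p under 0.05 there was 1 lower in series 1, and 1 lower and 2 higher in series 2. Mogat2, the enzyme of the monoacylglycerol route, was 1.47-fold lower over both series (limma adjusted p = 0.0318). Its series 1 difference was -0.68 (limma adjusted p = 0.0567) and its series 2 difference -0.40 (0.465). Of 15 genes of chylomicron assembly and secretion none passed in limma in series 1 (median -0.12, 1 higher at an unadjusted p under 0.05) and 1 fell in series 2 (median 0.08), Pla2g12b (1.62-fold, adjusted p = 0.038). Of 7 other apolipoprotein genes, a list that includes Apobec1, none passed in limma in series 1 (1 lower and 1 higher at an unadjusted p under 0.05) and Apobec1 was the 1 that rose in series 2. The list medians were 0.01 and -0.01. The others of this list, Apoa2, Apoa5, Apoc4, Apoe, Apom and Apoo, were close to background, with group means of 6.69 to 7.08. A change in them could have gone unseen.

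Over 6 genes of cholesterol efflux and lipoprotein receptors, 2 fell and 1 rose in series 1 and 1 fell in series 2, with medians of -0.41 and -0.28. Abcg8, which with Abcg5 pumps sterols back into the gut lumen, averaged 8.41 ± 0.13 (SD, n = 2) in Apc-Prox1-deleted and 9.42 ± 0.21 (SD, n = 4) in Apc-deleted organoids of series 1, 2.03-fold lower (limma adjusted p = 0.00101). It fell in series 2 as well, by 1.74-fold (adjusted p = 0.0301), to 8.26 ± 0.38 in Apc-Prox1-deleted against 9.05 ± 0.02 in Apc-deleted organoids (SD, n = 2 each). The lipoprotein receptor Vldlr fell 2.48-fold in series 1 (adjusted p = 0.0101), where the related receptor Lrp8 rose 1.33-fold (adjusted p = 0.0418). Neither passed in series 2, where Vldlr differed by -1.06 (limma adjusted p = 0.107) and Lrp8 by -0.01 (0.992). Over both series Vldlr was called lower (-1.2, SE 0.23, limma adjusted p = 0.00221) and Lrp8 did not pass (0.23, adjusted p = 0.162).

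Of 20 transcription regulators of enterocytes, 2 rose and 1 fell in series 1, and none passed in limma in series 2 (3 lower and 4 higher at an unadjusted p under 0.05), with medians of -0.08 and 0.02. Isx, an intestine-specific homeobox repressor, was 1.98-fold higher (limma adjusted p = 1.58e-05), and Ppard, a nuclear receptor for fatty acids, was 1.66-fold higher (adjusted p = 0.00728). Nr1h4, the bile acid receptor FXR, was 1.54-fold lower (adjusted p = 0.00775). Hnf4a did not pass, with 10.45 ± 0.32 (SD, n = 2) in Apc-Prox1-deleted and 10.62 ± 0.12 (SD, n = 4) in Apc-deleted organoids of series 1 (difference -0.17, SE 0.17, adjusted p = 0.681). In series 2 its difference was -0.21 (SE 0.20, adjusted p = 0.665). Of 13 genes of fatty acid oxidation and other PPAR targets, 1 rose in series 1, Angptl4 (1.51-fold, adjusted p = 0.0314), and 1 fell in series 2, Pdk4 (1.18-fold, adjusted p = 0.0279), with medians of -0.13 and 0.01. Pdk4 was close to background in series 2, at 6.76 ± 0.01 in Apc-Prox1-deleted and 7.00 ± 0.03 in Apc-deleted organoids (SD, n = 2 each). At an unadjusted p under 0.05, 5 of the 13 were lower and 1 higher in series 1, and 2 were lower and 2 higher in series 2.

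**Figure D4:**
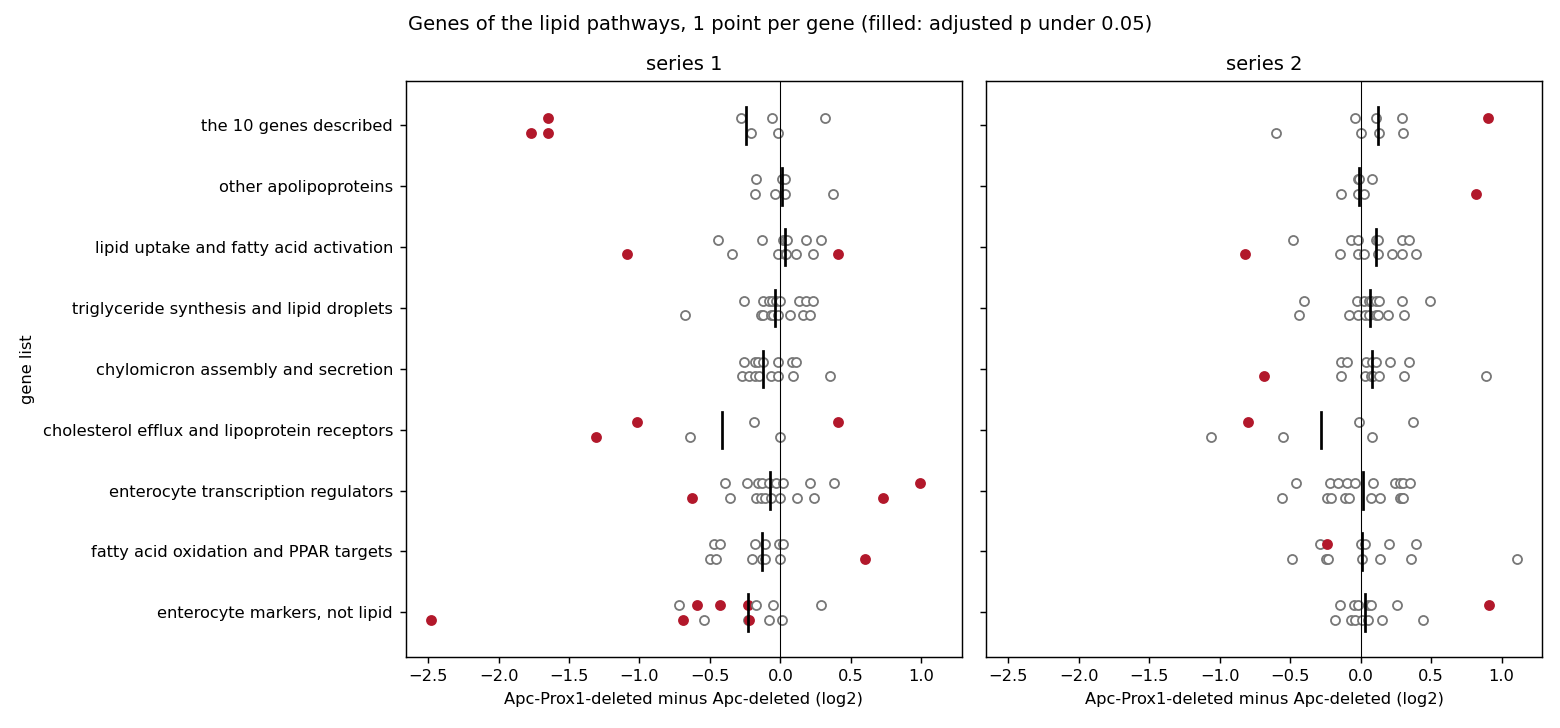
Difference between genotypes of each gene of the lipid pathways and of the enterocyte marker list, as Apc-Prox1-deleted minus Apc-deleted in log2 units, in series 1 and series 2, with 1 point per gene, a bar at the list median and filled points where the limma adjusted p was under 0.05. Over the 7 pathway lists 9 of 94 points are filled in series 1 and 5 of 94 in series 2, where 8.32% and 4.12% of all probes were called, and the enterocyte markers outside lipid handling have 6 filled points, all lower, in series 1.

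Enterocyte markers outside lipid handling fell beside the 3 apolipoproteins in series 1. Of 14 markers kept, 6 were lower, none higher and 8 did not pass (median -0.23). Sis, the brush border enzyme sucrase-isomaltase, averaged 8.70 ± 0.18 (SD, n = 2) in Apc-Prox1-deleted and 11.18 ± 0.09 (SD, n = 4) in Apc-deleted organoids of series 1, 5.57-fold lower (limma adjusted p = 1.68e-06). The glucose transporter Slc5a1 was 1.51-fold lower (adjusted p = 0.00587) and the brush border protease Mep1a 1.17-fold lower (adjusted p = 0.00822). The mean level of the list ran from 7.87 to 7.97 on the Apc-Prox1-deleted arrays and from 8.29 to 8.38 on the Apc-deleted arrays of series 1. In series 2 these ranges were 7.74 to 8.11 and 7.81 to 7.85, 1 marker rose, Cdhr5 (1.88-fold, adjusted p = 0.0133), and none fell in limma, also at an unadjusted p under 0.05 (0 of 14, median 0.03). Sis was at 8.51 ± 0.75 in Apc-Prox1-deleted and 8.66 ± 0.12 in Apc-deleted organoids of series 2 (SD, n = 2 each). Its difference in series 1 was lower than that in series 2 (limma adjusted p = 0.00147), the direction found for Apoc3. This was not particular to enterocyte markers. The goblet marker Muc2 was called in the same direction (-1.44, SE 0.25, limma adjusted p = 0.00893) and the immune marker Cd74 in the other (1.36, SE 0.16, adjusted p = 0.000109). Whether a change in enterocyte number has a part in the lower apolipoproteins was not tested.

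Some markers of other epithelial cells were also lower in series 1. Enteroendocrine markers fell in 8 of 9 genes in series 1 and 4 of 9 in series 2, with mean list levels of 7.54 to 7.83 on Apc-Prox1-deleted against 8.61 to 8.94 on Apc-deleted arrays of series 1. The series 2 levels were 7.82 to 7.99 against 8.37 to 8.61. Paneth markers fell in 4 of 6 genes in series 1 and 1 of 6 in series 2, and goblet markers in 3 of 7 in series 1 and 0 of 7 in series 2, where 3 were higher at an unadjusted p under 0.05. Stem and crypt base markers fell in 1 of 7 in each series, and 3 of 7 were called lower over both series. At an unadjusted p under 0.05, 3 were lower in each series and 1 was higher in series 2. Mean levels of this list were 10.08 to 10.13 on Apc-Prox1-deleted against 10.44 to 10.65 on Apc-deleted arrays of series 1. In series 2 they were 9.66 to 9.90 against 10.07 to 10.19. No tuft or fibroblast marker was called in limma in either series, with 2 tuft markers lower in series 1 at an unadjusted p under 0.05. Of the immune markers Laptm5 rose in series 1 and Cd74 fell in series 2, the 1 call among 4 genes in each. Markers of liver, the other organ that makes these apolipoproteins, had mean levels of 6.89 to 7.27 over all arrays, and 3 of 7 never exceeded the array median. None of the 2 kept was called in limma, with 1 lower in series 1 and 1 higher in series 2 at an unadjusted p under 0.05. Of the markers of gut position, the proximal list of 5 genes had 1 call in series 1 (Lct, close to background, 1.16-fold lower, limma adjusted p = 0.0127). The distal list of 4 had 1 in series 2 (Osr2, 2.12-fold lower, adjusted p = 0.0247). The part of these markers in the apolipoprotein results was not tested.

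Among all genes outside the list, 5 followed Apoc3 most closely, the member with the widest range after centring (2.39). Pearson's r over the 10 arrays was 0.968 for Smim24, 0.967 for Psmg2, 0.966 for Rdh7, and 0.959 for both Cyp2d10 and Nr1h4. These values are a description, since the 5 genes were picked as the highest from the same arrays, which share their genotype groups. Rdh7 and Cyp2d10 were near background, with group means of 6.89 to 7.32 and of 6.96 to 7.31. Smim24 averaged 8.97 ± 0.25 (SD, n = 2) in Apc-Prox1-deleted and 10.63 ± 0.48 (SD, n = 4) in Apc-deleted organoids of series 1, and 9.43 ± 0.40 and 9.84 ± 0.09 (SD, n = 2 each) in those of series 2. Nr1h4 averaged 7.92 ± 0.25 and 8.54 ± 0.18 in series 1, and 7.82 ± 0.09 and 7.74 ± 0.08 in series 2, in the same order of genotypes.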

How the data were processed

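RNA of organoid cultures was hybridised to Illumina BeadChip arrays, per the labels. The values used are the authors' deposited ratios. They behave as log2 levels over the median log2 level of the same probe in that series, since every probe has a median of 1 and its ratios become whole steps of 0.01 when multiplied by 1 divisor. Divisors were searched from 6.0 to 16.0, the smallest was taken, and log2 values were recovered for 45248 probes. A divisor was unique in both series for 2 of the 13 member probes, and unique in series 1 for Apoa1, the 2 brighter Apoa4 probes, Apoc3, Dgat1 and Dgat2. Elsewhere a larger divisor was possible, and would raise the level and the difference. The log base was read from the range, 6.35 to 15.23. Background correction and normalization are not given in the sources used here. A non-normalized table was not used, because its 28 columns of values carry names that match no label.

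Entries differing by at most 0.02 log2 at every probe were taken as 1 array. Values were quantile normalized over 14 entries. Probes above the 50th percentile of the array on at least 3 of 10 arrays were kept. Limma 3.58.1 in R 4.3.3 (lmFit, eBayes with a variance trend) was fitted to 4 groups, with 6 residual degrees of freedom, and over both series with series and genotype, with 7. Both steps were tested on simulated data. The number of arrays limits the precision. Alternatives were other filters, normalizations, variance priors, weights, entries, blocks, and each array left out. Genes were named from the platform annotation: 34885 probes have 1 symbol, 18 several and 10378 none. Every member is named, and of other lists at most 3 genes called per direction, by smallest adjusted p, besides Prox1, Hnf4a, the sex-linked transcripts and the neighbours of Apoa1, which were named after their values were seen. Members and lists were chosen with earlier results of these data known.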

Additional observations from a re-analysis of the deposited data

Results flagged for a closer look

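The difference between genotypes for Apoc3 differed between the series in a test of the difference itself, at -1.76 log2 for series 1 minus series 2 (SE 0.38, limma adjusted p = 0.0423). This call was lost in 11 of 19 alternatives, 8 of them the omission of a single array out of 10. In series 1 the means were 7.44 ± 0.09 (SD, n = 2) in Apc-Prox1-deleted and 9.21 ± 0.54 (SD, n = 4) in Apc-deleted organoids, and in series 2 they were 7.71 ± 0.35 and 7.72 ± 0.30 (SD, n = 2 each). The sex-linked transcripts Xist and Eif2s3y also differed between the genotypes in series 1 (-3.16, limma adjusted p = 6.41e-09, and 1.55, adjusted p = 2.56e-09) and not in series 2 (0.02, adjusted p = 0.981, and -0.30, adjusted p = 0.0672), and their part in the Apoc3 result was not tested. The 4 Apc-deleted arrays of series 1 were checked for an array standing apart, once for each of 13 member probes, and none was flagged. With 4 arrays only an extreme gap is flagged, and groups of 2 arrays were not checked. The check therefore does not show that no array stood apart. Replicate 2 of the 4 arrays was at 10.02 for Apoa1, against 10.89, 10.72 and 10.79. It was also the lowest of them for Apoc3 and for Apoa4.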

How the results depend on the processing

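Against 5 member probes called in series 1, a robust variance prior and a fit without a variance trend each gave 2. Leaving out each array gave 1 to 6 in series 1, 1 to 2 in series 2 (1 with all 10 arrays), 0 to 4 for the difference between series (1 with all 10) and 1 to 6 over both series (2 with all 10). For the difference, a robust prior, no trend and the deposited ratios each gave 0, all 14 entries as labelled gave 2, and array weights gave 3. Over both series a robust prior, no trend, the deposited ratios, no series term and a replicate block each gave 1, and array weights gave 6. The cause of these changes was not tested. The fall of Apoc3 in series 1 and the rise of Apob in series 2 kept direction and call in all 20 alternatives run.

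Over all probes, series 1 had 2191 calls and 738 to 2610 with an array left out, series 2 had 1085 and 413 to 1260, the difference 148 and 66 to 169, and both series 3353 and 1916 to 3852. In series 1, array weights gave 4610. Series 2 gave 393 calls on the values as recovered, 372 with cyclic loess, 184 with all 14 entries, 360 on the ratios and 719 with its own arrays alone, a setting added after the data were seen. The difference between series gave 53 with all 14 entries, 73 without a trend and 59 on the ratios. Over both series no series term gave 917, a replicate block 1996 and array weights 5096.

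Whether replicate numbers pair the samples could not be decided. Same-numbered deviations from the group means correlated at -0.025 and 0.191 in series 1 and 0.091 in series 2. In groups of 2 arrays these deviations are equal and opposite, so differently numbered arrays of series 2 gave -0.091 by construction. For Apoa1, Apoa4 and Apoc3, replicate 3 was above replicate 1 in both genotypes of series 2. With the replicate block, Apoc3 over both series was -0.85 (limma adjusted p = 0.084).

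Directions turned only for differences that did not pass. With all 14 entries Apoc2 in series 1 was 0.08, Dgat1 in series 2 was 0.03 and Dgat2 in series 1 was 0.05, and the dimmest Apoa4 probe was -0.07 in series 2. With arrays left out, ranges that crossed 0 were -0.70 to 0.97 for Apoa1, -0.39 to 1.0 for Apoa4, -0.05 to 0.26 for Apoc2 and -0.23 to 0.14 for Dgat1 in series 2. In series 1 they were -0.12 to 0.01 for Apoc2, -0.43 to 0.01 for Dgat2 and -0.12 to 0.08 for Mttp. Over both series Apoc2 gave -0.05 to 0.06, and the difference between series for Dgat2 gave -0.04 to 0.82. Signal near background limits Fabp1, Fabp2, Apoc2 and Mttp, and Apob on the Apc-deleted arrays.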

Other observations

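The arrays deposited under conflicting labels entered no comparison. The array with the labels of replicate 3 of Apc-Prox1-deleted series 1 and replicate 2 of Apc-Prox1-deleted series 2 had log2 levels of 9.0 for Apoa1, 9.08 for Apoa4, 8.10 for Apoc3 and 7.90 for Apob. The array with the labels of replicate 4 of Apc-Prox1-deleted series 1 and replicate 2 of Apc-deleted series 2 had 7.90 for Apoa1, 7.85 for Apoa4 and 7.33 for Apoc3, and 7.32 under its Apc-Prox1-deleted label for Apob.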
